A study of Mus musculus with 10 samples.

Results

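The genes described here encode the proteins of the mitochondrial ribosome. They were taken as every gene name made of Mrpl or Mrps followed by a number and, in some cases, a letter, which gave 74 of the 21437 genes in the FPKM table. No expression value entered this choice. By the subunit in which each protein sits, 49 belong to the large subunit (LSU) and 25 to the small subunit (SSU). Mrps18a and Mrps30 are counted with the large subunit, where their proteins lie despite their names.

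RNA-seq was performed on mouse oocytes arrested at metaphase of meiosis II (MII), on middle 2-cell embryos and on early 4-cell embryos, with 2 libraries in each of 5 groups. Oocytes were collected 16 h, 2-cell embryos 40 h and 4-cell embryos 55 h after hCG injection of females aged 7 weeks. The groups were wild-type MII oocytes, wild-type control 2-cell embryos, Ago2 kd 2-cell embryos, control 4-cell embryos and Ago2 kd 4-cell embryos, and the study asked how the loss of Ago2 alters mRNA during the maternal-to-zygotic transition. Ago2 kd embryos had received siRNA against Ago2 and AGO2 antibodies at the zygote stage. The labels call the controls wild type, and the methods name scrambled siRNA as the negative control for siRNA injection. The knockdown was transient and in the whole embryo, and Ago2 itself was not analysed here. The labels give the strain ICR for every library, whereas the methods give ICR females for oocytes and crosses of F1 mice for embryos, so strain and stage cannot be told apart between oocytes and embryos. The labels do not say whether the replicates came from separate collections, so p values measure the spread between libraries, which may be technical. How many embryos went into each library is not given in the sources used here.

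Mitochondrial ribosomes translate the few mRNAs that mitochondrial DNA encodes, nearly all of which specify core subunits of the oxidative phosphorylation complexes. Their rRNAs are made inside the organelle, whereas all of their proteins come from nuclear genes and are imported. Many of these proteins have a counterpart in bacterial ribosomes, and others are found in mitochondria only. Oocytes hand a large stock of mitochondria to the embryo, and mitochondrial DNA is not replicated to any great extent during the first cleavages.

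In the annotation of the same genome build (GENCODE M21, GRCm38), the 74 genes lay on 17 chromosomes, with 10 on chromosome 11 and 8 on chromosome 17. Exons of 31 members overlapped those of another gene, of which 26 had the overlap on the opposite strand and 8 on the same strand. Whether the libraries kept strand information is not given in the sources used here, so reads of such pairs may not be separable, and the partner is named beside each member described below.

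Promoters are shown for members on which the results turn, because the members lay on many chromosomes and shared motifs there more often than other genes did. RefSeq promoters (GRCm38.p6, from 250 bases before the transcription start to 50 after it) matched 65 members with 71 promoters. On either strand, the ETS motif CCGGAAG was present in 24 of the 71 (33.8%) against 8.86% of all 32851 promoters. The NRF1 motif, GCGC and GCGC with any 2 bases between them, was found in 14 (19.7% against 6.23%) and the YY1 motif AAGATGGC in 11 (15.5% against 2.75%). The CCAAT box (CCAAT) was found in 29 promoters (40.8% against 37.4%), the E-box (CACGTG) in 7 (9.86% against 7.15%) and the CRE (TGACGTCA) in 2 (2.82% against 1.79%). The TATA box (TATAAA) was the motif found less often than in all promoters, in 5 (7.04% against 13.6%). No matches of different motifs shared bases. GC content, on which such matches depend, had a median of 58.3% in the members' promoters and 52.7% in all promoters, and a motif match says nothing of binding.

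The 100 bases before the start are given 5′ to 3′ for 6 members with an ETS or NRF1 match, with the bases of each match in capitals. Mrpl12 (chr11:120484537-120484636, plus strand) and Mrpl9 (chr3:94443236-94443335, plus strand) held an NRF1 match. Mrpl43 (chr19:45006443-45006542, minus strand) held 2 ETS matches, and Mrpl34 (chr8:71464826-71464925, plus strand), Mrps18a (chr17:46110904-46111003, plus strand) and Mrpl27 (chr11:94653691-94653790, plus strand) held 1 each.
Mrpl12: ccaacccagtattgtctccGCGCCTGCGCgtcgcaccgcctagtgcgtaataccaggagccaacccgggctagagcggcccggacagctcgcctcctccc
Mrpl9: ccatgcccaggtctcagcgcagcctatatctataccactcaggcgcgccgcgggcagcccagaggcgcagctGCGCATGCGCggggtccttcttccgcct
Mrpl43: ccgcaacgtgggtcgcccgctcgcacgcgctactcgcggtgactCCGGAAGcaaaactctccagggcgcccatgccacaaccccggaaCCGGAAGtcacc
Mrpl34: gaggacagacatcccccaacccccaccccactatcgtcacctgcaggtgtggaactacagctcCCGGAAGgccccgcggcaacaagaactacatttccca
Mrps18a: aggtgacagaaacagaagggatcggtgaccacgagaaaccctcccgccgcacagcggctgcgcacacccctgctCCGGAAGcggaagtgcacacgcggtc
Mrpl27: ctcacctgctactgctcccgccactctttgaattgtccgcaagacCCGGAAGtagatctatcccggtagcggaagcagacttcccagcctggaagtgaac

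The promoters of Mrpl10 (chr11:97041482-97041581, plus strand) and Mrps14 (chr1:160195115-160195214, plus strand), the members that fell from the 2-cell to the 4-cell stage, held none of the 7 motifs in the whole window. Neither did those of 8 other members, of which Mrps6 and Mrpl55 rose at the same step.
Mrpl10: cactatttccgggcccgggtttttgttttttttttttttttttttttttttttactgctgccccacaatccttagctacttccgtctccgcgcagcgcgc
Mrps14: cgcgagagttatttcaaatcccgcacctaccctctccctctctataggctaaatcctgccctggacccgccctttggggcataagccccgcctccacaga

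Values are FPKM, fragments scaled to exon length and library size, so levels can be set side by side between genes. Summed over the 74 genes, the level was 690 and 791 FPKM in the MII oocyte libraries, 413 and 451 in 2-cell control embryos, and 1197 and 936 in 4-cell control embryos. After Ago2 kd it was 277 and 500 FPKM at the 2-cell stage, and 1012 and 2226 FPKM at the 4-cell stage. Every 4-cell library thus lay above every earlier one, while the Ago2 kd libraries overlapped the control libraries at both stages. Relative to the mean of the 2-cell controls, the sum was 2.47 ± 0.427 (SD, n = 2) in 4-cell controls, and 1.93 when each library was first scaled to the same total. For MII oocytes the same ratio was 1.72 ± 0.165 (SD, n = 2), and it became 0.755 with equal totals, since FPKM summed to 450124 and 458874 in oocytes and to between 178681 and 326352 in the 8 embryo libraries. As a share of all FPKM, the members took 0.153% and 0.172% in oocytes, 0.210% and 0.221% in 2-cell controls, and 0.445% and 0.388% in 4-cell controls. The shares in Ago2 kd embryos were 0.155% and 0.243% at the 2-cell stage and 0.437% and 0.682% at the 4-cell stage. In such bulk samples, fewer mRNA molecules of all other genes and more of these cannot be told apart from shares alone, nor fewer cells from less RNA per cell.

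**Figure D1:**
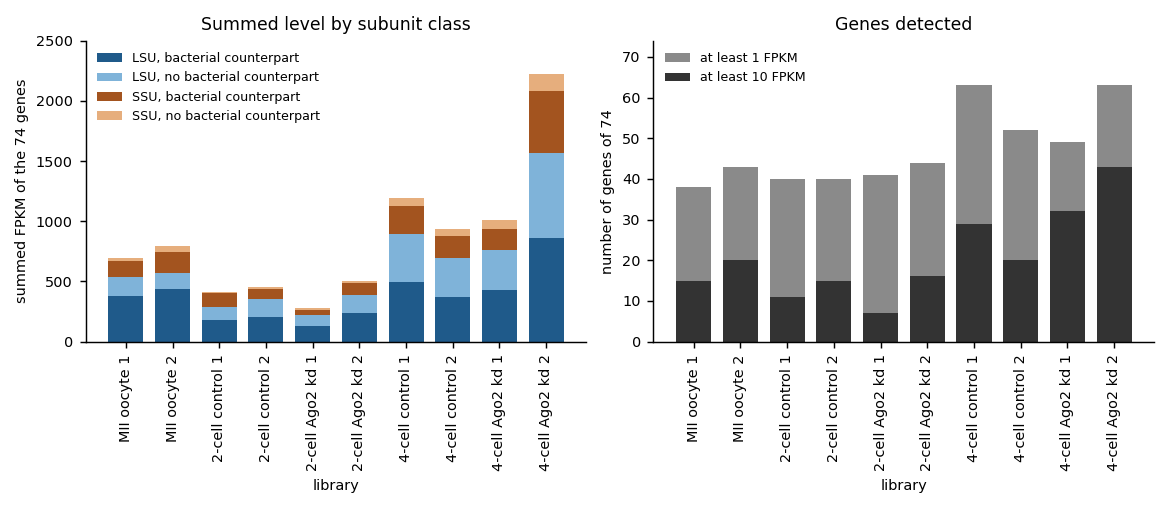
Left, summed FPKM of the 74 mitochondrial ribosomal protein genes in each of the 10 libraries, stacked by subunit (LSU or SSU) and by whether the protein has a bacterial counterpart. Right, how many of the 74 reached 1 FPKM (grey) and 10 FPKM (black) in each library. The 4 libraries of 4-cell embryos have the highest sums, from 936 to 2226 FPKM, and the second Ago2 kd library stands above the rest.

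More members were detected at the 4-cell stage as well. At least 1 FPKM was seen for 38 and 43 members in oocytes, 40 in each 2-cell control library, 41 and 44 in 2-cell Ago2 kd libraries, 63 and 52 in 4-cell controls, and 49 and 63 in 4-cell Ago2 kd libraries. Over all genes the shares at this level were 25.4% and 24.3% in oocytes and 23.8% to 24.6% in 2-cell libraries. They were 26.2% and 25.4% in 4-cell controls, and 22.8% and 27.2% in 4-cell Ago2 kd libraries. All 4 classes took part. The large-subunit proteins with a bacterial counterpart went from summed levels of 177 and 204 FPKM in 2-cell controls to 492 and 371 in 4-cell controls, and those without one from 110 and 151 to 402 and 319. The small-subunit classes went from 114 and 80.0 to 235 and 188 FPKM, and from 11.5 and 16.7 to 68.4 and 57.0.

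The members at the head of these sums changed with the stage. Mrpl10 (chromosome 11, 97041560 to 97049213; overlaps Gm11574 on the opposite strand) encodes the protein that anchors the large-subunit stalk, and had the highest level of the members in both oocyte and all 4 2-cell libraries, with 51.2 to 115 FPKM. Mrpl12 (chromosome 11, 120484613 to 120489065; overlaps Gm16755 on the opposite strand) encodes the stalk protein itself, which also binds the mitochondrial RNA polymerase. Mrpl12 had 2.16 and 1.23 FPKM in oocytes, 9.34 and 24.3 in 2-cell controls, 5.33 and 14.3 in 2-cell Ago2 kd, 144 and 181 in 4-cell controls, and 122 and 152 in 4-cell Ago2 kd embryos. It led both 4-cell control libraries.

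Mrpl40 (chromosome 16, 18872018 to 18876862) and Mrpl34 (chromosome 8, 71464959 to 71465747) completed the 4 highest means. Mrpl40, a protein found in mitochondria only, ranged between 33.5 and 54.5 FPKM in the 6 control libraries, and after Ago2 kd it had 19.0 and 50.2 FPKM at the 2-cell and 67.8 and 124 at the 4-cell stage. Mrpl34 had 16.2 and 25.6 FPKM in oocytes, 10.4 and 29.4 in 2-cell controls, 47.9 and 64.4 in 4-cell controls, 8.79 and 20.4 after Ago2 kd at the 2-cell stage, and 46.9 and 224 in 4-cell Ago2 kd embryos. The last value alone lay far above its replicate. Mrpl10, Mrpl18 and Mrpl40 were the members with at least 10 FPKM in every library.

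**Figure D2:**
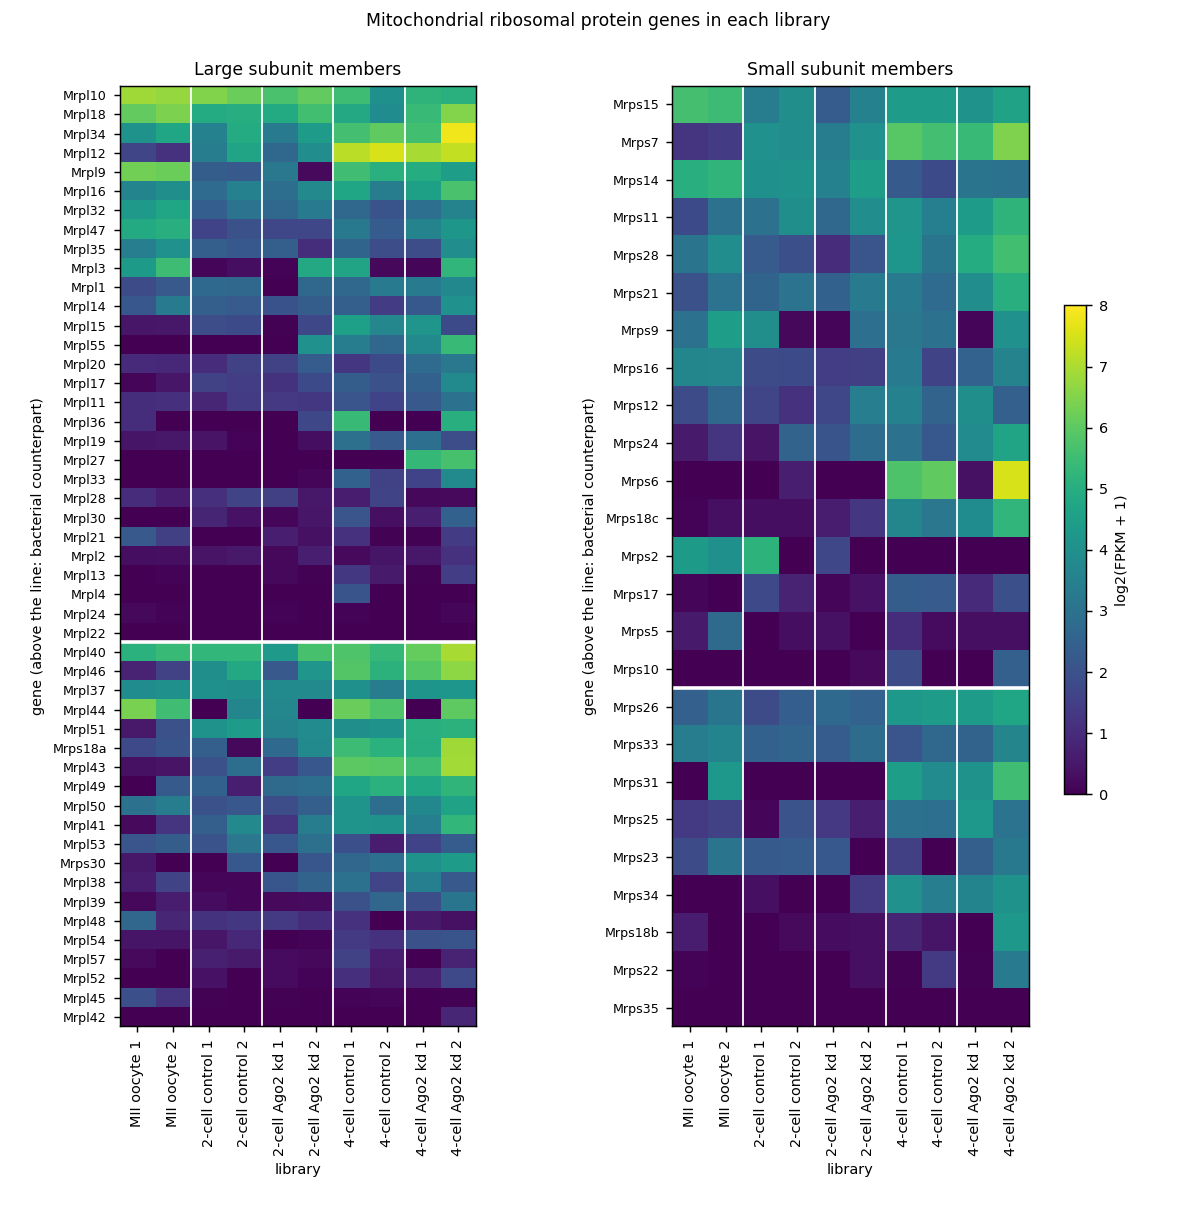
Log2(FPKM + 1) of each of the 74 genes (rows) in the 10 libraries (columns), for the large subunit (left) and the small subunit (right). Genes are ordered by mean level within the class with (above the horizontal white line) and without (below it) a bacterial counterpart. Many rows brighten in the last 4 columns, the 4-cell libraries, and some rows, such as Mrpl44 and Mrps9, hold single dark cells between bright ones.

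Single dark values of this kind were not rare. Of 208 member values above 10 FPKM, 12 (5.77%) fell under 0.1 FPKM in their own group's other library, and the share was 5.58% over all genes. In 4-cell Ago2 kd embryos, 5 of the 43 members above 10 FPKM in replicate 2 (Mrpl3, Mrpl44, Mrps9, Mrps18b and Mrpl36) were below 0.1 FPKM in replicate 1, where the share over all genes was 14.6%. A value of 0 in 1 library was therefore not read as absence. The median absolute difference between replicates over the 74 members, on the log2(FPKM + 1) scale, was 0.30 in oocytes, 0.21 in 2-cell controls and 0.56 in 2-cell Ago2 kd embryos. It was 0.60 in 4-cell controls and 0.86 in 4-cell Ago2 kd embryos.

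When summed, oocyte markers separated the 3 stages, whereas 2-cell markers did not separate 2-cell from 4-cell embryos, and the knockdown label was not checked. The 7 oocyte markers (among them Gdf9, Bmp15 and Btg4) summed to 21376 and 23806 FPKM in oocytes. They summed to between 7679 and 9933 FPKM in the 2-cell libraries and to between 28.1 and 68.7 FPKM in the 4-cell libraries. Btg4 made up most of the sum in oocyte and 2-cell libraries. Btg4, Gdf9, Oosp1, Nlrp5 and Ooep each separated the 3 stages. Bmp15 did not separate oocytes (605 and 449 FPKM) from 2-cell controls (787 and 436). Zp3 was listed at 0 in 1 library of 2-cell controls and at 23.5 FPKM in 1 library of 4-cell Ago2 kd embryos. The 2-cell markers in the table (Zscan4d, Tdpoz3 and Tdpoz4) were listed at 0 in both oocyte libraries, but their sums overlapped between the 2-cell libraries (54.0 to 145 FPKM) and the 4-cell libraries (54.1 to 164 FPKM), and Zscan4d was above 0 in 1 library only. Of the granulosa cell markers, Foxl2 was the one in the table and was listed at 0 in all 10 libraries, and sperm Prm1 and Prm2 summed to at most 1.78 FPKM. Genes of mitochondrial DNA took 2.02% to 2.23% of all FPKM in oocytes, 3.04% to 5.34% at the 2-cell stage and 5.22% to 13.0% at the 4-cell stage.

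Differences were tested with limma on log2(FPKM + 1), over the 8726 genes that reached 1 FPKM in 2 or more libraries, and all log2 differences below are on this scale, which understates the change of low genes. A gene was called at an unadjusted two-sided p below 0.05, the threshold of the study, and Benjamini-Hochberg adjusted p values over all 8726 genes are given beside it. Of the 74 members, 66 were tested. The others were Mrpl22, listed at 0 in every library, and Mrpl2, Mrpl4, Mrpl24, Mrpl42, Mrpl57, Mrps18b and Mrps35. Nearest the limit, the second-highest value was 1.05 FPKM for Mrps5, 1.09 for Mrpl52 and 1.36 for Mrpl45, which were tested, and 0.791 for Mrps18b, 0.715 for Mrpl57 and 0.577 for Mrpl2, which were not. Because a member could pass through 1 group in which it was high, the counts below refer to the tested members only.

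The first question was how these mRNAs changed between the oocyte and the middle 2-cell embryo. Of the 66 members, 7 rose and 9 fell, against 11% and 21.6% of all genes tested. After adjustment 5 rose and 5 fell (6.54% and 14.2% of all genes). Mrpl45, which fell, passed the filter only through the 2 oocyte libraries, so its call is no support for a fall. The filter was the same for all genes. The median difference was -0.10, and -0.06 over all genes. When each library was scaled to the same total, which moved the median of all genes to 0.36, 15 of 69 tested members rose and 3 fell, against 17.8% and 9.13% of all genes. The libraries of the 2 stages did not overlap for 14 members that were higher in 2-cell embryos (21.2%, background 25%) and 22 that were lower (33.3%, background 37%).

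The members that rose were Mrps17, Mrps7, Mrpl12, Mrpl41, Mrpl43, Mrpl46 and Mrpl51. Mrpl46 (chromosome 7, 78775236 to 78783531) encodes a mitochondria-specific protein of the large subunit, and its exons overlap those of Mrps11 on the opposite strand. It went from 0.715 and 1.91 FPKM in oocytes to 14.98 and 27.5 in 2-cell controls, with no overlap, a difference of 3.26 (SE 0.73, limma adjusted p = 0.0209). Mrpl51 (chromosome 6, 125191801 to 125196269; overlaps Mir3098 on the same strand), of the same class, went from 0.469 and 2.95 to 16.2 and 20.4 FPKM, a difference of 2.99 (SE 0.50, limma adjusted p = 0.00676). It then stayed between 10.9 and 20.4 FPKM in every library but those of 4-cell Ago2 kd embryos, which had 32.1 and 34.0 FPKM.

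Mrps7 (chromosome 11, 115603925 to 115608036; overlaps Gga3 and Mif4gd on the opposite strand) encodes a protein of the small-subunit head. It had 1.30 and 1.65 FPKM in oocytes and 15.6 and 14.2 in 2-cell controls, a rise of 2.68 (SE 0.45, limma adjusted p = 0.00705). All of these values in 2-cell embryos lay above all of those in oocytes, and the calls for Mrpl46, Mrpl51 and Mrps7 were also made with equal totals.

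The members that fell were Mrpl9, Mrpl18, Mrpl21, Mrpl32, Mrpl45, Mrpl47, Mrps14, Mrps15 and Mrps16. Mrpl9 (chromosome 3, 94443318 to 94451130; overlaps Oaz3 on the opposite strand), a large-subunit protein with a bacterial counterpart, had 77.6 and 72.4 FPKM in oocytes and 4.15 and 3.71 in 2-cell controls. It fell by 3.95 (SE 0.88, limma adjusted p = 0.0203), and with equal totals the fall was not called (log2 difference -3.01, unadjusted p = 0.0609 from limma). Mrpl47 (chromosome 3, 32725397 to 32737605; overlaps Actl6a and Ndufb5 on the opposite strand), which lies at the tunnel exit of the large subunit, went from 28.4 and 31.4 to 2.08 and 2.93 FPKM. It fell by 3.15 (SE 0.45, limma adjusted p = 0.00368), also with equal totals.

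Mrps15 (chromosome 4, 126046925 to 126055532), a small-subunit protein that binds the rRNA directly, had 49.2 and 43.8 FPKM in oocytes and 9.31 and 14.3 in 2-cell controls. It fell by 1.91 (SE 0.47, limma adjusted p = 0.0296), and with equal totals the difference was -0.81 and not called (unadjusted p = 0.129 from limma). The 3 members that fell had no overlap between oocytes and 2-cell controls. In the 4-cell controls Mrpl9 was at 46.2 and 32.5 FPKM, Mrps15 at 20.6 and 19.97, and Mrpl47 at 8.48 and 3.99, all below the oocyte libraries and above the 2-cell controls. For Mrpl9 the order against oocytes depends on the scaling. FPKM totals were larger in oocytes (450124 and 458874) than in 4-cell controls (268660 and 241317).

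**Figure D3:**
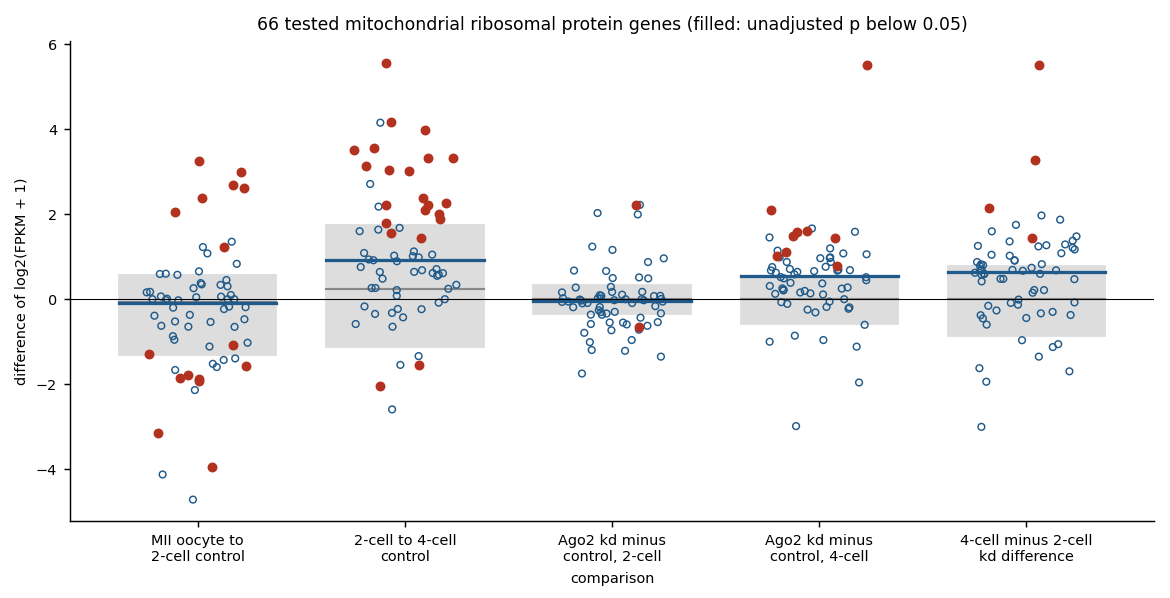
Difference of log2(FPKM + 1) for each of the 66 tested members in the 5 comparisons (filled red, unadjusted p below 0.05 from limma; open blue, others), with the median of the members (blue line) and the median and interquartile range of all 8726 genes tested (grey line and box). The rise from the 2-cell to the 4-cell stage has 20 filled points above 0 and 2 below it, and the 4-cell Ago2 kd comparison has 9 above and 0 below.

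From the middle 2-cell to the early 4-cell stage, the direction among the members was mostly upward. In control embryos 20 of 66 rose and 2 fell, where 26% and 20.9% of all genes did, so the share that rose was near the background and the share that fell was smaller. After adjustment 13 rose and 2 fell (21.1% and 17.5% of all genes). Of the 20 that rose, Mrpl19, Mrpl33, Mrpl39, Mrpl55, Mrps6, Mrps18c, Mrps31 and Mrps34 passed the filter only through their 4-cell libraries. Their calls are therefore no support for a rise. The filter was the same for all genes. The median difference was 0.93 and that of all genes 0.24. With median scaling 15 of 64 rose and 4 fell (22.8% and 23.6% of all genes), and with quantile normalization 16 of 66 rose and 4 fell (22.7% and 23.2%). Libraries did not overlap for 38 members that were higher at the 4-cell stage (57.6%, background 38.4%) and for 7 that were lower (10.6%, background 30.2%). The 38 include Mrpl19, Mrpl33, Mrpl39, Mrpl55, Mrps6, Mrps18c, Mrps31 and Mrps34. They also include Mrpl13, Mrpl52, Mrpl54, Mrps17 and Mrps22, which likewise passed the filter only through 4-cell libraries. In this count and in the median, all of these members are no support for a rise.

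By group mean, 41 of the 66 members (62.1%) had their highest level among the 3 control stages in 4-cell embryos and 5 in 2-cell embryos. The other 20 (30.3%) were counted with oocytes. They include Mrpl27, whose values tied in all control libraries, so that it had no highest stage. Over all genes tested, 42.9% were highest in 4-cell embryos and 37.7% were counted with oocytes. Any gene tied like Mrpl27 was counted in the same way, so these oocyte shares may be too high. Among Ago2 kd embryos, 42 members (63.6%) were higher without overlap in the later stage and 4 (6.06%) were lower, against 34.9% and 29.2% of all genes. The 41 include Mrpl13, Mrpl19, Mrpl30, Mrpl33, Mrpl39, Mrpl52, Mrpl54, Mrpl55, Mrps6, Mrps10, Mrps17, Mrps18c, Mrps22, Mrps31 and Mrps34. The 42 include Mrpl27 and all of these but Mrpl13, Mrpl55, Mrps10 and Mrps22. These members passed the filter only through 4-cell libraries, so in both counts they are no support for a rise. Removing replicate 1 of the 4-cell controls left 10 of 61 tested members that rose and 3 that fell (22.9% and 19.7% of all genes).

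In the large subunit 12 of 43 tested members rose, 6 with a bacterial counterpart (Mrpl9, Mrpl12, Mrpl15, Mrpl19, Mrpl33 and Mrpl55) and 6 without one (Mrpl38, Mrpl39, Mrpl43, Mrpl49, Mrpl50 and Mrps18a). Mrpl12 rose by 3.33 (SE 0.59, limma adjusted p = 0.00512), after its rise of 2.61 between oocyte and 2-cell embryo (SE 0.59, limma adjusted p = 0.0218). Mrps18a (chromosome 17, 46110986 to 46128910), whose protein lies in the large subunit despite its name, had 2.40 and 3.25 FPKM in oocytes, 4.38 and 0.126 in 2-cell controls, and 43.6 and 33.3 in 4-cell controls. The 4-cell values lay above all of the others, and the rise was 3.99 (SE 0.90, limma adjusted p = 0.0132).

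Mrpl43 (overlaps Twnk, the mitochondrial DNA helicase gene, on the opposite strand) is described although it is outside the rule for named genes, because it rose at both steps. It had 0.285 and 0.353 FPKM in oocytes, 2.97 and 6.49 in 2-cell controls, and 62.6 and 60.0 in 4-cell controls, and the groups did not overlap. The rises were 2.05 (SE 0.57, limma adjusted p = 0.0451) and 3.51 (SE 0.57, limma adjusted p = 0.00356). Mrpl12, Mrpl43 and Mrps7 were the 3 members called as higher at both steps.

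In the small subunit 8 of 23 tested members rose (Mrps6, Mrps7, Mrps18c, Mrps25, Mrps26, Mrps28, Mrps31 and Mrps34). Mrps6 (chromosome 16, 92058270 to 92112227; overlaps Gm49711 and Slc5a3 on the same strand) was listed at 0 in both oocyte libraries and at 0 and 0.595 FPKM in 2-cell controls, and had 53.7 and 64.5 FPKM in 4-cell controls. The groups lay far apart, yet limma gave an adjusted p of 0.0623 (unadjusted p = 0.0256), because its spread includes the 4-cell Ago2 kd libraries at 0.292 and 182 FPKM. Leaving out any 1 of the 4 control libraries compared lost the unadjusted call, with p between 0.0673 and 0.0954 from limma.

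Mrps31 (chromosome 8, 22411361 to 22429665), a mitochondria-specific protein, was listed at 0 in both 2-cell control libraries and had 21.6 and 13.5 FPKM in 4-cell controls (limma adjusted p = 0.0386). In oocytes it was listed at 0 in replicate 1 and at 18.4 FPKM in replicate 2, so that the 2 oocyte libraries disagreed on its presence. Its unadjusted p was 0.0513 without either 2-cell control library and 0.0631 without replicate 1 of the 4-cell controls. Mrps7 rose further, to 59.8 and 48.3 FPKM, by 1.79 (SE 0.45, limma adjusted p = 0.0204).

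The 2 members that fell were Mrps14, of the small-subunit head, and Mrpl10. In FPKM, Mrps14 (chromosome 1, 160195215 to 160202170) declined without overlap, from 32.1 and 36.3 in oocytes to 15.2 and 16.2 in 2-cell controls and 3.80 and 2.48 in 4-cell controls. All FPKM summed to 450124 and 458874 in oocytes and to 196312 and 203645 in 2-cell controls. These totals differed by about the same factor as Mrps14 did, so its first step depends on the scaling. It fell by 1.07 at the first step (SE 0.42, limma adjusted p = 0.124) and by 2.03 at the second (SE 0.42, limma adjusted p = 0.00895). Mrpl10 had 115 and 105 FPKM in oocytes, 88.3 and 70.8 in 2-cell controls, and 44.4 and 15.3 in 4-cell controls. It fell by 1.56 at the second step (SE 0.49, limma adjusted p = 0.0417), a call lost without replicate 1 of the 2-cell controls (unadjusted p = 0.0717) or replicate 2 of the 4-cell controls (unadjusted p = 0.0508). While Mrpl10 fell by 1.56, its partner in the stalk, Mrpl12, rose by 3.33, so that Mrpl12 stood above Mrpl10 in every 4-cell library and below it in every earlier one.

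The members with and without the promoter motifs were set side by side for this step. Of the 38 tested members with an NRF1, ETS or YY1 match, 10 rose and 0 fell, with a median difference of 0.64. Of the 21 with none of these, 5 rose and 2 fell, with a median of 0.92. The difference between these sets was not tested.

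**Figure D4:**
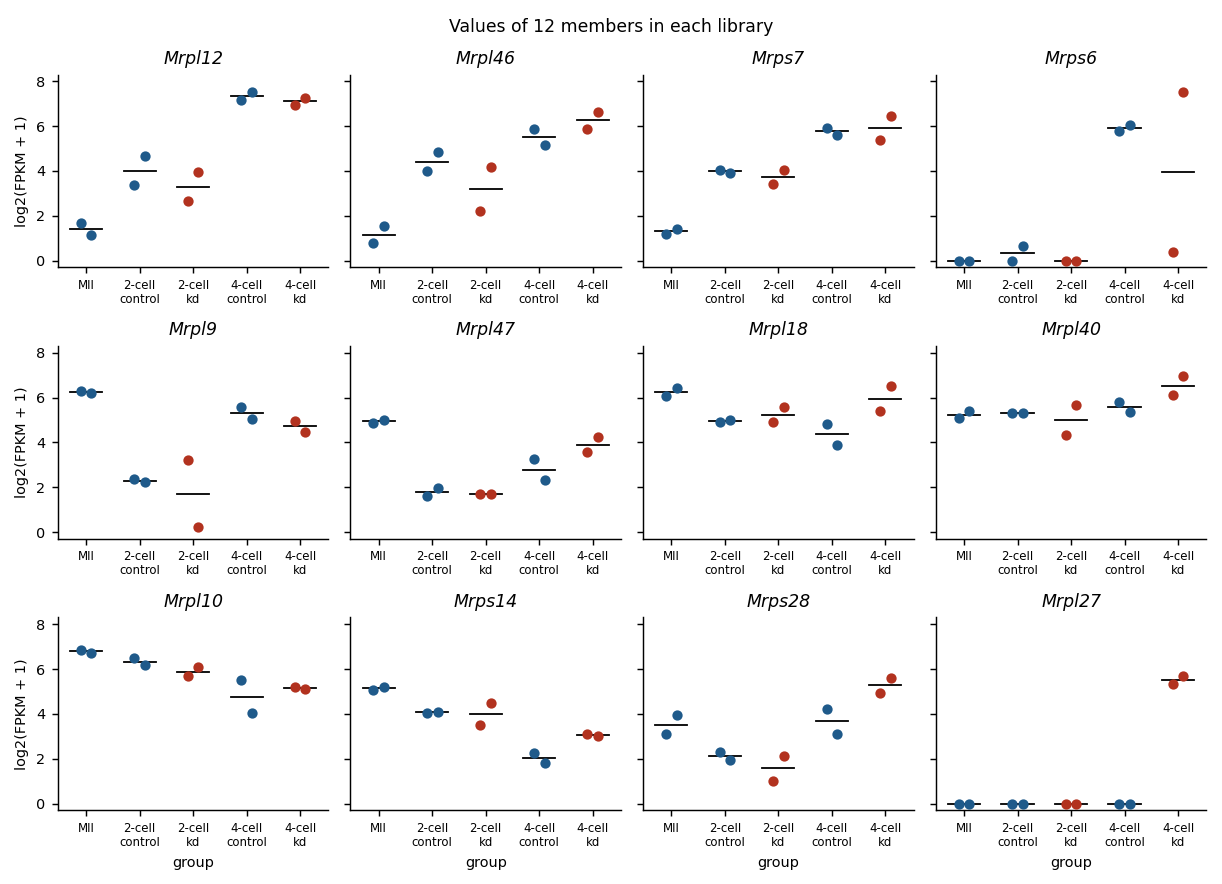
Log2(FPKM + 1) of 12 members in each library (points; blue, MII oocytes and control embryos; red, Ago2 kd) with the mean of each group (line, n = 2). Mrpl12, Mrpl46 and Mrps7 are low in oocytes and high at the 4-cell stage, as is Mrps6 apart from 1 Ago2 kd library, Mrpl9 and Mrpl47 dip at the 2-cell stage, Mrpl10 and Mrps14 decline, and Mrpl27 is at 0 in all libraries but the 2 of 4-cell Ago2 kd embryos.

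Next, Ago2 kd embryos were compared with controls to ask which of these mRNAs changed when Ago2 was reduced. At the 2-cell stage 1 of 66 members was higher and 1 lower, against 2.96% and 3% of all genes, and 0 passed after adjustment in limma (0.332% and 0.218% of all genes). The median difference was -0.04. With equal totals 3 of 69 were higher and 2 lower (4.27% and 2.89% of all genes). Libraries did not overlap for 10 members that were higher (15.2%, background 14.4%) and 8 that were lower (12.1%, background 14.7%). Replicate 1 lay below both controls for 30 members and replicate 2 for 13, and over all genes tested these shares were 32.9% and 24.9%.

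Mrpl38 (chromosome 11, 116131817 to 116138868) and Mrpl54 (chromosome 10, 81264713 to 81266934), both found in mitochondria only, were the 2 that differed. Mrpl38 had 0.0887 and 0.0937 FPKM in controls and 3.38 and 4.84 in Ago2 kd embryos, a difference of 2.21 (SE 0.65, unadjusted p = 0.0115, adjusted p = 0.426, limma). In 4-cell embryos it had 7.00 and 2.18 FPKM in controls and 10.1 and 3.71 after Ago2 kd, which overlap. Mrpl54 had 0.395 and 0.903 FPKM in controls, and 0 and 0.0593 in Ago2 kd embryos, all below 1 FPKM. The difference was -0.66 (SE 0.26, unadjusted p = 0.0414, adjusted p = 0.787, limma), and leaving out 1 library removed this call in 5 of 10 cases.

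At the 4-cell stage 9 members were higher in Ago2 kd embryos and 0 were lower, against 7.37% and 8.07% of all genes. The count of calls was 16 of 64 with median scaling (17.2% of all genes) and 18 of 66 with quantile normalization (16%). It was 5 of 66 with a pseudocount of 0.1 (13.9% of all genes). In the main fit 15.4% of all genes were called. The 9 were Mrpl18, Mrpl20, Mrpl27, Mrpl47 and Mrpl54 of the large subunit and Mrps14, Mrps21, Mrps23 and Mrps28 of the small subunit. After adjustment 1.23% of all genes passed as higher and 2.77% as lower, and the 1 member that passed, Mrpl27, had entered the test only through the group in which it was high and is no support for a difference. The median difference of the 66 members was 0.55 and that of all genes 0.00, and 50 of the 66 differences were above 0, as were 4041 of all 8726. Libraries did not overlap for 23 members that were higher (34.8%, background 20.1%) and 4 that were lower (6.06%, background 16.9%).

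The 2 Ago2 kd libraries contributed unequally to this count. Replicate 2 lay above both controls for 51 of the 66 members and below both for 7, whereas replicate 1 lay above both for 25 and below both for 18. Over all genes tested, replicate 2 lay above both controls for 38.5% and below both for 25.5%, and replicate 1 for 30% and 29.8%. Without replicate 2 of the Ago2 kd embryos, 2 members were higher and 3 lower, with a median of 0.20, and 5.7% and 12.9% of all genes were. Without replicate 1, 16 were higher and 1 lower, with a median of 1.10, and 10.5% and 8.72% of all genes were. Without replicate 2 of the controls, 2 members were higher and 0 lower, against 6.09% and 7.07% of all genes. In a fit of the 4-cell groups alone, 1 of 61 tested members was called, against 12.9% of all genes. Genes of mitochondrial DNA took 13.0% of all FPKM in replicate 2 and 11.1% in replicate 1, against 10.8% and 5.22% in the controls. The part of these differences between libraries in the count was not tested.

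Mrpl27 (chromosome 11, 94653767 to 94660089; overlaps Eme1 on the opposite strand) encodes a large-subunit protein whose bacterial counterpart reaches the peptidyl transferase centre. It was listed at 0 in all 6 libraries of control embryos and oocytes and in both 2-cell Ago2 kd libraries, and had 39.3 and 50.3 FPKM in 4-cell Ago2 kd embryos. No other member was listed at 0 in 8 libraries and above 10 FPKM in the other 2. It entered the test only through the 2 libraries in which it was high, and the other groups, all listed at 0, had no spread. Its values are therefore given as a description. It stays in the counts of calls, and the p values printed for it in the closing sections are no support for a difference. In a fit of the 4-cell groups alone it did not pass after adjustment.

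Mrps28 and Mrps23 followed in size. Mrps28 (chromosome 3, 8802146 to 8923918), a small-subunit protein with a bacterial counterpart, had 17.5 and 7.71 FPKM in controls and 29.9 and 47.0 in Ago2 kd embryos, without overlap. The difference was 1.60 (SE 0.60, unadjusted p = 0.0318, adjusted p = 0.258, limma), and the call was lost without replicate 2 of the controls (unadjusted p = 0.17) or replicate 2 of the Ago2 kd embryos (unadjusted p = 0.133). Mrps23 (chromosome 11, 88204388 to 88211507), found in mitochondria only, had 1.83 and 0 FPKM in controls and 4.40 and 8.47 in Ago2 kd embryos. The difference was 2.09 (SE 0.87, unadjusted p = 0.0489, adjusted p = 0.32, limma), near the threshold, and leaving out any of 7 libraries removed the call.

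Of the other members called here, 3 were also called as lower in 2-cell controls than in oocytes, as were 21.6% of all genes tested. For Mrpl18 and Mrps14 that fall depends on the scaling. It was about as large as the difference in FPKM totals between oocytes (450124 and 458874) and 2-cell controls (196312 and 203645). Mrpl18 (chromosome 17, 12911349 to 12916345; overlaps Tcp1 on the opposite strand), whose bacterial counterpart binds 5S rRNA, had 66.7 and 84.3 FPKM in oocytes, 29.2 and 30.8 in 2-cell controls, 27.6 and 13.97 in 4-cell controls, and 40.9 and 90.1 in 4-cell Ago2 kd embryos. The difference at the 4-cell stage was 1.58 (SE 0.51, unadjusted p = 0.018, adjusted p = 0.185, limma). Mrps14 had 7.53 and 7.02 FPKM in 4-cell Ago2 kd embryos, above its 4-cell controls and below all oocyte and 2-cell libraries, with a difference of 1.02 (SE 0.42, unadjusted p = 0.0449, adjusted p = 0.31, limma). Mrpl47 had 10.9 and 17.8 FPKM, above the 4-cell controls and below the oocytes, with a difference of 1.12 (SE 0.45, unadjusted p = 0.0411, adjusted p = 0.298, limma).

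Members with the strongest rises over the control stages did not pass in this comparison. The difference was -0.25 for Mrpl12 (SE 0.59), 0.16 for Mrps7 (SE 0.45) and 0.76 for Mrpl46 (SE 0.73). Mrpl46 had 58.2 and 98.3 FPKM in Ago2 kd embryos and 57.1 and 34.5 in controls. Mrpl9, at 30.0 and 21.1 FPKM against 46.2 and 32.5 in controls, was 1 of the 4 that were lower without overlap, with a difference of -0.60 (SE 0.88).

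Whether the effect of Ago2 kd differed between the stages was tested with an interaction term, the 4-cell difference minus the 2-cell difference. It was positive at an unadjusted p below 0.05 for 4 members (Mrpl27, Mrpl54, Mrps23 and Mrps28) and negative for 0, against 6.27% and 7.11% of all genes. The count was 7 with median scaling (14.9% of all genes called) and 7 with quantile normalization (13.8%). With equal totals 4 were positive and 1 negative (5.48% and 7.17% of all genes). The count also changed when 1 library was left out. After adjustment 0.642% of all genes passed as positive and 1.64% as negative. The 1 member that passed was Mrpl27, for which this is no support either, since the filter kept it only for its 4-cell Ago2 kd libraries. The term was 1.44 for Mrpl54 (SE 0.37, limma adjusted p = 0.136), 3.28 for Mrps23 (SE 1.24, limma adjusted p = 0.313) and 2.15 for Mrps28 (SE 0.84, limma adjusted p = 0.332).

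Proteins of the mitochondrial ribosome that carry other gene names were then examined. Dap3, a small-subunit GTP-binding protein, had 45.9 and 37.3 FPKM in oocytes, 10.4 and 11.4 in 2-cell controls, and 0.590 and 0.0911 in 4-cell controls, and fell by 3.18 at the last step (SE 0.99, limma adjusted p = 0.0417). Its course was downward like that of Mrps14. Aurkaip1, also of the small subunit, had 0.0699 and 1.92 FPKM in oocytes and 5.98 and 5.09 in 2-cell controls. It stayed at 5.15 and 3.83 FPKM in 4-cell controls and had 16.9 and 20.5 in 4-cell Ago2 kd embryos, a difference of 1.84 (SE 0.52, unadjusted p = 0.0096, adjusted p = 0.133, limma).

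Ptcd3 of the small subunit was low throughout, between 0.569 and 1.74 FPKM. Chchd1, likewise of the small subunit, ranged from 0.374 to 26.8 FPKM, and Gadd45gip1 of the large subunit from 1.45 to 14.2 FPKM, with replicates of the 4-cell groups differing several-fold. Of these 5 genes, 0 rose and 1 fell from the 2-cell to the 4-cell stage, and 1 was higher in 4-cell Ago2 kd embryos.

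Genes that act with the mitochondrial ribosome were counted in the same fit. From the 2-cell to the 4-cell control stage, 5 of 14 tested genes for assembly and rRNA modification rose and 1 fell (median 0.81), 2 of 8 translation factors rose (median 0.65), 2 of 3 mitochondrial tRNA synthetases rose (median 1.24), and 4 of 7 genes for mitochondrial transcription and DNA upkeep rose (median 1.77). The last 4 were Polg2, Trmt10c, Ssbp1 and Tfam, the packaging protein of mitochondrial DNA. Of the organelle's own transcripts, 0 of 13 mRNAs were called (median 0.24), and of the 2 rRNAs mt-Rnr2, the large-subunit rRNA, rose. It had 2002 and 1824 FPKM in 2-cell controls and 11642 and 3774 in 4-cell controls.

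Between 4-cell Ago2 kd embryos and their controls, 0 of the 8 translation factors and 0 of the 3 tRNA synthetases were called, 1 of 14 assembly genes was lower, and 2 of 7 transcription genes (Ssbp1 and Hsd17b10) were higher. Hsd17b10, a dehydrogenase that is also a subunit of mitochondrial RNase P, had 2.44 and 0 FPKM in controls and 15.5 and 10.7 in Ago2 kd embryos, a difference of 2.90 (SE 0.59, limma adjusted p = 0.0476). The mitochondrial mRNAs had differences above 0 for 13 of 13, with 4 called as higher (median 1.04), and at the 2-cell stage 2 were lower and 0 higher (median -0.69).

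Other gene families were set beside the members. Between the 2-cell and 4-cell controls, 33 of 59 tested cytoplasmic ribosomal protein genes rose and 1 fell, with a median of 1.83, and of 62 nuclear genes of oxidative phosphorylation 15 rose and 3 fell, with a median of 0.77. In 4-cell Ago2 kd embryos, 8 cytoplasmic ribosomal protein genes were higher and 4 lower (median 0.23), and 10 oxidative phosphorylation genes were higher and 0 lower (median 0.68). The medians of the mitochondrial ribosomal protein genes, 0.93 and 0.55, lay between these families at the first comparison and near oxidative phosphorylation at the second, and the differences between families were not tested.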

How the data were processed

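RNA-seq libraries of mouse oocytes and cleavage embryos (10 libraries, 2 in each of 5 groups) were analysed from the deposited table of FPKM values. According to the methods, the authors trimmed reads with Trim Galore, aligned them with HISAT2 to GRCm38.p6 (mm10 in the labels), counted them with HTSeq and computed FPKM with StringTie. How the values of transcripts were joined into 1 value for a gene name is not given in the sources used here. The table holds no read counts, so depth is unknown and no counting interval can be given.

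Values were transformed to log2(FPKM + 1), and genes that reached 1 FPKM in 2 or more libraries were kept (8726 of 21437). All 5 group means were fitted in limma 3.58.1 (R 4.3.3) with a variance trend and 5 residual degrees of freedom. Tests were two-sided, and p values were adjusted by Benjamini-Hochberg over all genes tested. With 2 libraries against 2, the smallest two-sided exact permutation p is 0.333, so calls rest on the spread that limma shares between genes. Tables and figures were made with pandas 2.3.3 and matplotlib 3.10.9 in Python 3.11.15. Positions came from GENCODE M21 and promoters from RefSeq (GRCm38.p6).

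The members and gene lists were chosen with earlier results of these data known. Members were named by value if they were among the 3 largest rises or falls of a comparison with an unadjusted p below 0.05 and no overlap of libraries, if they passed adjustment in an Ago2 kd comparison, or if they were among the 4 highest means, the members with at least 10 FPKM in every library, or the 3 nearest each side of the filter. The promoters shown, and Mrpl43, were chosen after their values were seen. Alternatives were another pseudocount, no filter, 3 other scalings, a replicate block, a fit of only the groups compared, and leaving out each library.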

Additional observations from a re-analysis of the deposited data

Results flagged for a closer look

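Mrpl27 was listed at 0 in both groups at the 2-cell stage and in 4-cell controls, and had 39.3 and 50.3 FPKM in 4-cell Ago2 kd embryos. It is listed here because its interaction term, the difference between the effects of Ago2 kd at the 4-cell and the 2-cell stage, had a limma adjusted p of 0.00204. That p is no support for a difference between stages, since Mrpl27 passed the filter only through the 2 libraries in which it was high, was not testable without either of them, and had no spread in the other groups. Its exons overlap those of Eme1 on the opposite strand, and the part of that overlap in its level was not tested.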

How the results depend on the processing

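With 2 libraries per group and no read counts, single libraries decided several counts, and the cause was not tested in any case below. Counts are of members. Over all genes, the share called in settings that left out no replicate was 4.95% to 7.16% for Ago2 kd at the 2-cell stage. It was 9.42% to 17.2% at the 4-cell stage and 8.59% to 14.9% for the interaction. From oocyte to 2-cell embryo it was 18.1% to 52.6%, and from the 2-cell to the 4-cell stage 24.2% to 60.8%. The Ago2 kd comparison at the 2-cell stage (2 calls) gave 1 with no filter, 1 with the replicate block, 1 with only the groups compared, 4 with median scaling and 5 with equal totals. With 1 library left out, the median difference of the members was -0.162 to 0.0632, and that of all genes -0.0098 to 0. With quantile normalization 2 members were higher and 1 lower.

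At the 4-cell stage (9 calls) it gave 5 with a pseudocount of 0.1, 16 with median scaling, 18 with quantile normalization and 1 with only the groups compared, and 2 to 17 with 1 library left out, the lowest without replicate 2 of the controls and the highest without replicate 1 of the Ago2 kd embryos. The interaction (4 calls) gave 7 with median scaling and 7 with quantile normalization. With 1 library left out, its median was 0.234 to 1.10 for the members and -0.0616 to 0.138 for all genes.

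Leaving out 1 library gave 11 to 20 calls from oocyte to 2-cell embryo (16 with all libraries) and 13 to 25 from the 2-cell to the 4-cell stage (22 with all), the lowest without replicate 1 of the 4-cell controls. From oocyte to 2-cell embryo, the split of 7 higher and 9 lower became 9 and 7 with median scaling, 9 and 8 with quantile normalization, and 15 and 3 with equal totals. The summed level relative to 2-cell controls became 0.755 (equal totals) and 1.06 (median scaling) in oocytes, from 1.72, and 1.93 and 1.82 in 4-cell controls, from 2.47.

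For the named members, 318 alternative values of 19 comparisons included 0 that changed sign. Outside the interaction, these members were chosen for having no overlap of libraries. Leaving out 1 library or changing the pseudocount could then not reverse the sign, so this count says little of their stability. Calls were lost in 15 values from other settings and in 34 from leaving out 1 library. Mrpl27 at the 4-cell stage had an adjusted p of 0.142 with only the groups compared and was not testable without either Ago2 kd library, so its values under the other settings, 0.000251 to 0.0114, say nothing of its stability.

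Same-numbered libraries did not deviate together (r from -0.0931 to 0.0924), so the numbers were not taken as pairs. The replicate block gave 1 call for Ago2 kd at the 2-cell stage, 6 at the 4-cell stage, 4 for the interaction, 15 from oocyte to 2-cell embryo and 20 from the 2-cell to the 4-cell stage.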
